A study of Mus musculus with 10 samples.

Results

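Complement components were examined in mouse lung: genes of the classical and alternative pathways and the C3a receptor, 9 in all, namely C1qa, C1qb, C1qc, C2, C4b, C3, Cfb, Cfp and C3ar1. All 9 were found by gene symbol among the non-control probes of the arrays, out of 27670 named genes, and 12 of 41174 probes belonged to them. Total RNA of whole lung was measured on 1-colour microarrays in 5 mice deficient in p53 and 5 wild-type mice of the C57BL/6J strain. All 10 mice were males of 8 weeks whose airways had been exposed to inhaled saline for 30 min, so both groups describe the baseline before any infection. The p53-null mice lack the transcription factor encoded by Trp53, which switches on genes of growth arrest and cell death when DNA is damaged. The labels name neither the Trp53 allele nor the breeding of the 2 lines, and the series' design calls the 5 mice of each genotype biological replicates.

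Complement is a cascade of plasma and tissue proteins that marks microbes and dying cells for removal. The classical pathway starts when C1q, a hexamer built from the products of C1qa, C1qb and C1qc, binds antibody or a surface, after which C2 and C4 form an enzyme that cleaves C3. In the alternative pathway factor B, encoded by Cfb, forms that enzyme with C3 itself, and properdin, encoded by Cfp, stabilises it. The C3a receptor, encoded by C3ar1, senses the small fragment released from C3. Most plasma complement is made by the liver, while C1q is made mainly by macrophages and dendritic cells, and lung epithelium and phagocytes produce several components locally.

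The probes of the genes on which the results turn are given here 5′ to 3′, each 60 bases long, as the array files give them. Cfb was the single member that passed the test, C4b came next, the 3 C1q genes moved together from array to array, and the 2 probes of C2 differed in opposite directions.
Cfb: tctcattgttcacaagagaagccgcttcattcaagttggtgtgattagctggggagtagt
C4b: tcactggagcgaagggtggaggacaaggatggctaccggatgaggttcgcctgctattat
C1qa: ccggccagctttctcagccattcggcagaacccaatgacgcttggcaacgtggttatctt
C1qb: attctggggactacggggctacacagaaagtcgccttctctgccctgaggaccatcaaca
C1qc: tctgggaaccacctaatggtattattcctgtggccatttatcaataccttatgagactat
C2, brighter probe: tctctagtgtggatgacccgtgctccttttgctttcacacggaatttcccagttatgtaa
C2, dimmer probe: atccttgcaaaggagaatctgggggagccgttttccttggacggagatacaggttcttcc
In the files' coordinates (mm7, minus strand for each), the Cfb probe lies at chr17:32952681-32953037, the C4b probe at chr17:32815561-32815620 and the C2 probes at chr17:32958754-32958813 and chr17:32959305-32959480. The C1qa, C1qb and C1qc probes lie at chr4:136274931-136274990, chr4:136259100-136259159 and chr4:136268288-136268347. The Cfb probe and the dimmer C2 probe cover 357 and 176 bases of the genome for 60 bases of probe. Cfb and C2 are neighbours on chromosome 17, and C1qb, C1qc and C1qa follow one another on chromosome 4 without another protein-coding gene between them, in the gene order of RefSeq (GRCm38.p6). The C4b probe's annotation also lists a transcript of C4a, a near-identical copy, so the signals of the 2 genes cannot be told apart on it.

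RefSeq promoter windows, 250 bases before to 50 after the start of transcription (GRCm38.p6), were available for 5 of the 9 members: C1qb, C1qc, C3ar1, C3 and Cfp. Those of C1qb (chr4:136886151-136886450, minus strand) and C1qc (chr4:136892865-136893164, minus strand) are printed because these genes varied together. Capitals mark matches on either strand to GAGGAA, the core bound by the myeloid factor PU.1.
C1qb promoter: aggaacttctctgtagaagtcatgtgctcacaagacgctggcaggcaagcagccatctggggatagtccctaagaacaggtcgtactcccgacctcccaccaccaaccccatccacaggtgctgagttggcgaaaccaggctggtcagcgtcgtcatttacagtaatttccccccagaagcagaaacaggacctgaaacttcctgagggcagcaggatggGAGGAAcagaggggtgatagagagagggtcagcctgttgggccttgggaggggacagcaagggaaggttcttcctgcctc
C1qc promoter: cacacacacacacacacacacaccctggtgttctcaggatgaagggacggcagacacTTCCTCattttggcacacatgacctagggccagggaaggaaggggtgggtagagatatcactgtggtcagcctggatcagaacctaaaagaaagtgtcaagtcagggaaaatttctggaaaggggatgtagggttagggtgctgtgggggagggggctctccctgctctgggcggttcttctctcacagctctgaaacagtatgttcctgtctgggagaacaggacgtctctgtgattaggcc
Each of these windows held 1 match, with its first base at -30 in C1qb and at -193 in C1qc relative to the start site, and 28.3% of 32851 promoter windows of the same length held one. Among the other members' windows, Cfp held 2 matches, and C3 and C3ar1 held none. The interferon-stimulated response element core GAAANNGAA (in 8.56% of all windows) and the STAT-bound GAS sequence TTCNNNGAA (in 8.3%) had no match in the 5 members' windows on either strand. A match to the p53 half-site, found in 8.36% of all windows, was present at -176 in C3ar1 and in no other of the 5. The kappaB consensus, in 8.46% of all windows, matched in C1qc alone, at -41. These motifs do not overlap in the printed windows. They describe letters in these windows, and binding was not measured here.

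Between 71.4% and 84.0% of spots per array were well above background, and arrays correlated with one another at 0.967 to 0.991. The lowest correlation, 0.967, was between wild-type arrays 1 and 5. Wild-type array 2 correlated with the other arrays at 0.969 to 0.980. Wild-type array 5 correlated with the other wild-type arrays at 0.967 to 0.974 and with the p53-null arrays at 0.970 to 0.987. It stands apart in many results below, so these are given with and without it. Its omission raised the number of genes that differed to 6618 (31.4%), against 1582 of 21108 tested (7.49%) with all arrays. Of the Trp53 probes, the one printed in 10 spots read -3.15 to -2.66 in p53-null lung and -1.67 to -1.43 on wild-type arrays 1 to 4, and wild-type array 5 read -2.22 (difference -1.28 ± 0.16 SE, limma adjusted p = 0.00589 over all probes). The other Trp53 probe differed by 0.31 ± 0.28. It read 0.13 to 0.65 in p53-null lung and -0.34 to 0.01 on wild-type arrays 1 to 4. Wild-type array 5 was highest of all there, at 1.24. Which probe lies in the deleted part is not given. Lung epithelial markers were present in both groups: 8 alveolar type 2, 6 alveolar type 1 and 6 airway genes all passed the filter. None of them passed the test, and 1 airway gene had an unadjusted limma p under 0.05. Skeletal muscle markers varied widely within both groups, with a mean level of -1.95 to 2.14 in p53-null and -2.50 to 2.99 in wild-type lung. Squamous epithelial markers did so too (-4.61 to 0.74 and -4.43 to 1.82). Levels are log2 signals relative to each array's 75th percentile, and differences are p53-null minus wild type on that log2 scale, with the SE from limma and n = 5 per group. P-values are adjusted over all genes tested.

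Of the 9 complement members, 1 was higher in p53-null lung (Cfb), none was lower, and 8 did not pass the test. Across all genes tested, 4.6% were higher and 2.89% lower. At an unadjusted limma p under 0.05 the members numbered 2, Cfb and C4b, against 27.6% of all genes. The median difference of the 9 members was 0.44, against 0.05 over all genes, with 7 positive and 2 negative, C2 being counted by its brighter probe. Over all genes tested, 11878 differences were positive and 9230 negative. Without wild-type array 5, 6 members were higher (C1qa, C1qb, C1qc, C4b, Cfb and C3ar1) and none was lower, and 17.1% of all genes were then higher. With the trend in probe GC content removed as well, an alternative chosen after the data were seen, 4 members were higher. Over all 21108 genes tested, 1935 were then higher and 2717 lower. Wild-type array 5 was singled out for its values, which reached the p53-null range for C1qa, C1qb, C1qc, C4b and C3ar1. Its omission was therefore bound to widen their differences, and the calls without it are no independent support. Leaving out any other single array gave no called member. In whole lung, a change in the number of cells of a type and a change in RNA per cell cannot be told apart.

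**Figure D1:**
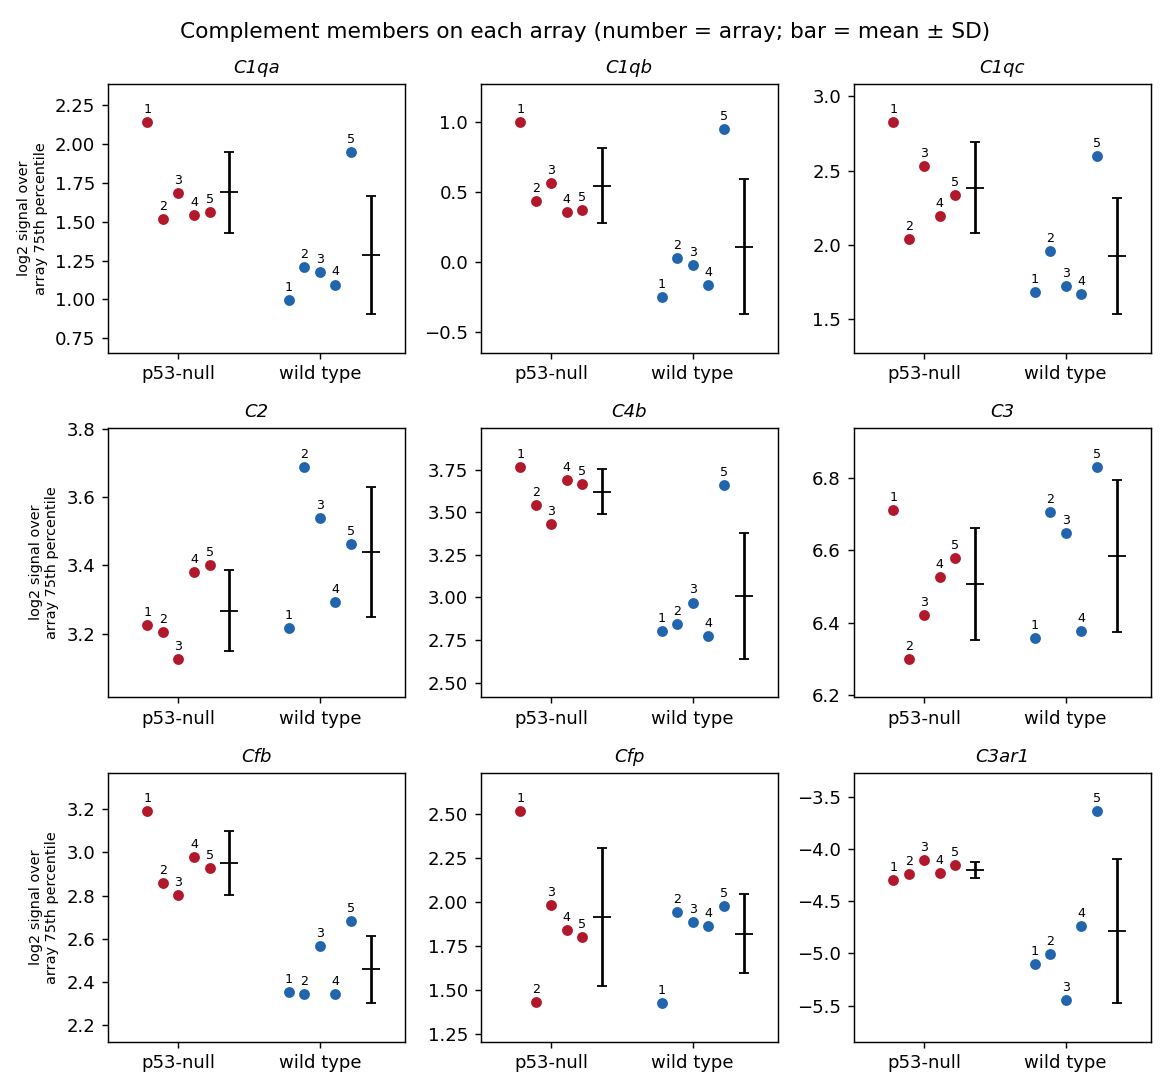
Log2 signal of each of the 9 members on every array, relative to the array's 75th percentile, with p53-null arrays left of wild-type arrays, the array number above each point and the mean ± SD (n = 5) as a bar. The 5 p53-null arrays lie above all 5 wild-type arrays for Cfb alone, and wild-type array 5 lies well above the other wild-type arrays for C1qa, C1qb, C1qc, C4b and C3ar1.

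C1qa, C1qb and C1qc, the chains of C1q, ran higher in p53-null lung than on 4 of the 5 wild-type arrays, but did not pass the test. C1qa read 2.14, 1.52, 1.68, 1.54 and 1.56 on p53-null arrays 1 to 5, against 0.996, 1.21, 1.18, 1.10 and 1.95 on wild-type arrays 1 to 5. Every p53-null value lay above wild-type arrays 1 to 4, and wild-type array 5 exceeded 4 of the 5 p53-null values, so the groups overlapped. The difference was 0.40 ± 0.19 (95% CI -0.03 to 0.83, limma adjusted p = 0.209).

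C1qb read 1.001, 0.44, 0.57, 0.36 and 0.37 in p53-null lung, against -0.25, 0.03, -0.02, -0.16 and 0.95 in wild-type lung. C1qc read 2.83, 2.04, 2.53, 2.19 and 2.33 in p53-null lung, against 1.68, 1.95, 1.72, 1.67 and 2.60 in wild-type lung. As for C1qa, p53-null array 1 and wild-type array 5 were highest in their groups. C1qb differed by 0.44 ± 0.23 (limma adjusted p = 0.247) and C1qc by 0.46 ± 0.21 (limma adjusted p = 0.184). Two-sided exact permutation tests over all splits of the arrays gave unadjusted p = 0.0873 for C1qa, 0.119 for C1qb and 0.0873 for C1qc, where 0.00794 is the smallest value possible. Without wild-type array 5 the 3 differences were 0.57 ± 0.13, 0.65 ± 0.14 and 0.63 ± 0.16 (limma adjusted p = 0.0127, 0.00905 and 0.0165). With the GC trend removed they were 0.21, 0.24 and 0.47 with all arrays, and 0.27, 0.35 and 0.62 without wild-type array 5, where the limma adjusted p of C1qc alone (0.0279) passed. The C1qa and C1qb probes have a GC content of 55.0% and the C1qc probe 38.3%.

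After subtraction of the genotype means, the 3 C1q genes correlated over the 10 arrays at r = 0.99 (C1qa and C1qb), 0.95 (C1qa and C1qc) and 0.94 (C1qb and C1qc). The other members correlated with them too, C4b at 0.76 to 0.87, C3 at 0.74 to 0.78, Cfb at 0.67 to 0.81, C3ar1 at 0.69 to 0.74 and Cfp at 0.61 to 0.71, while C2 did so at 0.09 to 0.11. Among 20552 genes outside the complement lists, those most like the mean of the C1q genes were Emp3 (r = 0.97), Cacng8 (0.96), H2-Ab1 (0.96), U26471 (0.96) and NAP025806-1 (0.96). H2-Ab1 encodes a chain of MHC class II, carried by antigen-presenting cells. It read 5.85, 5.42, 5.59, 5.60 and 5.57 in p53-null lung and 4.86, 4.97, 5.00, 4.94 and 5.40 in wild-type lung, and was higher by 0.57 ± 0.12 (limma adjusted p = 0.0268). Emp3 was higher by 0.47 ± 0.12 (limma adjusted p = 0.0472). Cacng8, U26471 and NAP025806-1 did not pass (limma adjusted p = 0.106, 0.369 and 0.251). All these values share the same 10 RNA samples and scaling, and wild-type array 5 and p53-null array 1 are the extreme points. Before scaling, these were also the dimmest arrays. Their 75th percentile intensities were 2381 and 2799, against 3171 to 4398 on the other arrays. The part of array brightness in these correlations was not tested.

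Markers of macrophages, cells known to make C1q, had positive differences in 14 of 17 and negative ones in 3, and 6 had an unadjusted limma p under 0.05. Across all genes tested 27.6% had one, and by adjusted p 4.6% were higher and 2.89% lower. Of their differences, 11878 were positive and 9230 negative. Of 18 listed macrophage markers, 17 were on the array and passed the filter. Of these, 2 were higher (Cx3cr1 by 1.14 ± 0.24 and Csf1r, the receptor for the macrophage growth factor, by 0.56 ± 0.14, limma adjusted p = 0.0282 and 0.0460). Marco, a scavenger receptor of alveolar macrophages, was the 1 lower (by -0.77 ± 0.17, limma adjusted p = 0.0330), and the list's median was 0.23. The mean level of the list was 1.14 to 1.42 in p53-null and 0.91 to 1.27 in wild-type lung. The mean of the C1q genes was 1.33 to 1.99 in p53-null and 0.81 to 1.83 in wild-type lung. Csf1r followed the C1q pattern on single arrays, with wild-type array 5 at 2.32 and the other wild-type arrays at 1.66 to 1.72. The other Trp53 probe, given above, did so too, so the pattern was not particular to macrophage markers. The share of all genes with this pattern was not counted. The part of macrophages in the C1q values was not tested.

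**Figure D2:**
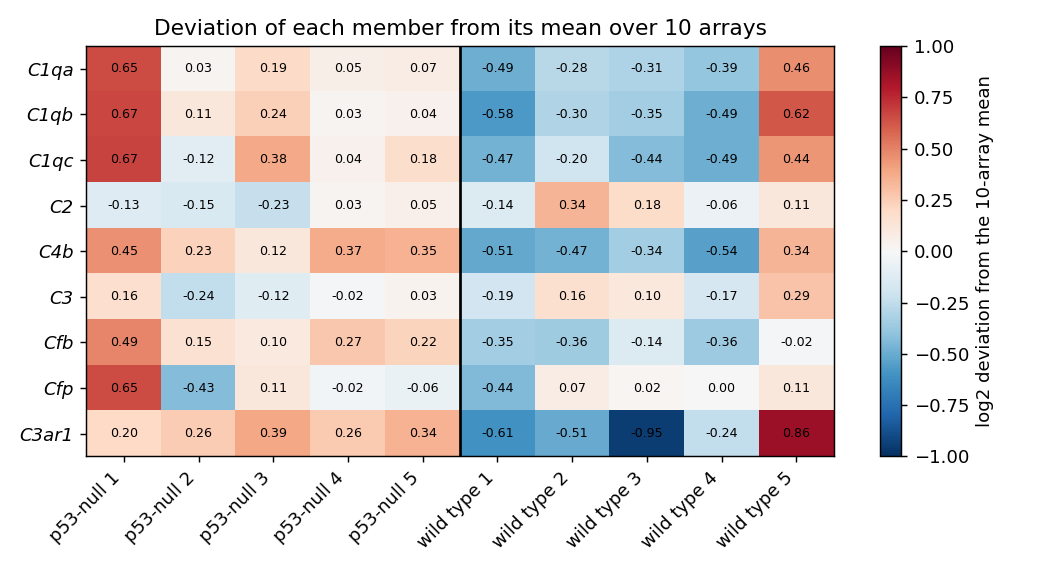
Deviation of each member (rows) on each array (columns) from its mean over the 10 arrays, in log2 units, with p53-null arrays left of the line and wild-type arrays right of it. The C1q genes, C4b, C3ar1 and C3 are high on wild-type array 5, and C2 is highest on wild-type array 2.

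C4b and C2 encode the components that C1q-bound proteases cleave. C4b read 3.77, 3.55, 3.43, 3.69 and 3.66 in p53-null lung, against 2.80, 2.85, 2.97, 2.77 and 3.66 in wild-type lung. Wild-type array 5 lay within the p53-null values, and the other wild-type arrays lay below all of them. The difference was 0.61 ± 0.17, a fold of 1.53, and narrowly missed the threshold (limma adjusted p = 0.0549, exact two-sided permutation p = 0.0238). Without wild-type array 5 it was 0.77 ± 0.084 (limma adjusted p = 6.94e-04). C4b passed under 6 of 18 other settings of the analysis, and with the GC trend removed its difference was 0.42. The separate C4a probe read -5.90 to -5.18 in p53-null and -6.81 to -4.74 in wild-type lung, was well above background on 3 wild-type arrays and differed by 0.57 ± 0.36.

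The brighter C2 probe read 3.22, 3.20, 3.13, 3.38 and 3.40 in p53-null lung, against 3.22, 3.69, 3.54, 3.29 and 3.46 in wild-type lung. The groups overlapped, and the difference of -0.17 ± 0.11 did not pass (limma adjusted p = 0.319). The dimmer C2 probe read 1.42, 1.40, 1.02, 1.37 and 1.21 in p53-null lung, against 0.57, 1.01, 0.70, 0.61 and 1.55 in wild-type lung. There the p53-null arrays lay above wild-type arrays 1 to 4 and wild-type array 5 was highest of all, as for the C1q genes. That probe differed by 0.40 ± 0.19 (limma adjusted p = 0.201 over all probes, of which 7.11% passed), so the 2 probes gave C2 no agreed direction, and the mean of both differed by 0.11.

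Cfb, which encodes factor B, the protease component of the alternative pathway, was higher in p53-null lung. It read 3.19, 2.86, 2.80, 2.98 and 2.93 in p53-null lung, against 2.35, 2.34, 2.56, 2.34 and 2.68 in wild-type lung. All 5 p53-null arrays lay above all 5 wild-type arrays, which held for Cfb alone among the members. The groups did not overlap for 9.1% of all genes, 5.31% with p53-null lung higher and 3.79% with it lower. The means were 2.95 ± 0.15 in p53-null and 2.46 ± 0.16 in wild-type lung (SD, n = 5 each; exact two-sided permutation p = 0.00794, the smallest possible). The difference was 0.49 ± 0.10, a fold of 1.41 (95% CI 0.26 to 0.72, limma adjusted p = 0.0282).

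The call of Cfb depended on the arrays in the fit. Leaving out any one of the 5 p53-null arrays or of wild-type arrays 1 to 4 gave differences of 0.43 to 0.53 with limma adjusted p = 0.0528 to 0.0653, short of the threshold, and leaving out wild-type array 5 gave 0.55 (limma adjusted p = 0.00336). With the slide as a random block the difference was 0.49 (limma adjusted p = 0.0357). Arrays in the lower and the higher range of slide numbers gave 0.51 (limma adjusted p = 0.250, 4 p53-null and 3 wild-type arrays) and 0.41 (1 p53-null and 2 wild-type arrays, a value given without a test), and the range as a block gave 0.48 (limma adjusted p = 0.0518). The 1 slide that held both genotypes, with p53-null array 2 and wild-type array 4, gave 0.52 under a fixed slide block. Without the arrays high in skeletal muscle genes the difference was 0.47 (limma adjusted p = 0.237). The same slide ranges gave 0.35 and 0.38 for C1qa, 0.33 and 0.53 for C1qb, 0.40 and 0.34 for C1qc, 0.54 and 0.67 for C4b and 0.38 and 0.85 for C3ar1.

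C3, the protein on which the pathways converge, showed no detectable difference. Its brighter probe was printed in 10 spots, which agreed within an SD of 0.031 to 0.078 on every array. C3 read 6.71, 6.30, 6.42, 6.52 and 6.58 in p53-null lung, against 6.36, 6.71, 6.65, 6.38 and 6.83 in wild-type lung. The groups overlapped over most of their range, and the spread between mice exceeded that between spots. The difference was -0.08 ± 0.12 (95% CI -0.34 to 0.19, limma adjusted p = 0.723), and the dimmer C3 probe differed by -0.25 ± 0.24. The genes most like C3 over the arrays were BC003965 (r = 0.98), Phf5a (0.96), A430005L14Rik (0.95), Alkbh5 (0.95) and Gpat4 (0.95), with differences of -0.06 to 0.05.

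Cfp, the properdin gene, read 2.51, 1.43, 1.98, 1.84 and 1.80 in p53-null lung, against 1.42, 1.94, 1.89, 1.86 and 1.98 in wild-type lung. P53-null array 1 was the highest of all, and wild-type array 1 the lowest, with p53-null array 2 close to it. The difference was 0.10 ± 0.19 (95% CI -0.33 to 0.52, limma adjusted p = 0.790). It fell below 0 without p53-null array 1 or without wild-type array 1 (-0.06 and -0.0034), and rose to 0.22 without p53-null array 2.

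C3ar1, the C3a receptor found on myeloid cells, was dim but well above background on all 10 arrays. It read -4.30, -4.24, -4.11, -4.23 and -4.15 in p53-null lung, against -5.10, -5.00, -5.45, -4.74 and -3.64 in wild-type lung. The p53-null values lay within a narrow band, above wild-type arrays 1 to 4 and below wild-type array 5. The difference of 0.58 ± 0.28 did not pass with all arrays (limma adjusted p = 0.217), and it was 0.87 ± 0.13 without wild-type array 5 (limma adjusted p = 0.00204). A second C3ar1 probe, well above background on 4 wild-type arrays, differed by 0.60 ± 0.19 (limma adjusted p = 0.0776 over all probes).

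**Figure D3:**
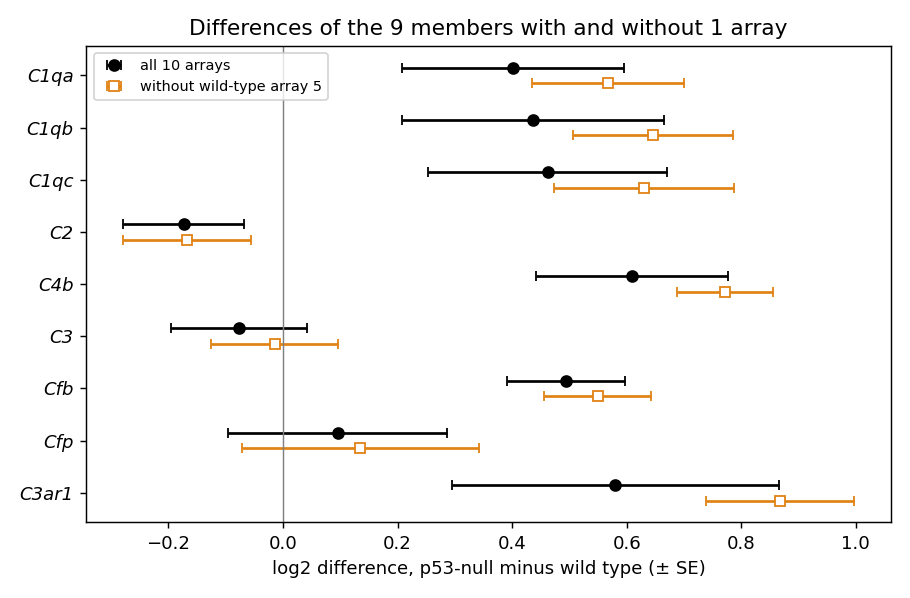
Difference between p53-null and wild-type lung in log2 units (± SE) for each member, with all 10 arrays (filled circles) and without wild-type array 5 (open squares). Leaving out that array moves the C1q genes, C4b and C3ar1 further above 0 and leaves C2, C3, Cfb and Cfp nearly in place.

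The rest of the pathway moved in both directions. Of 53 other complement genes, 52 were on the array and 45 passed the filter. In p53-null lung 2 were higher and 6 lower, against 4.6% and 2.89% of all genes tested. The median difference of the 45 was 0.01. None of the 12 tested initiation genes of the classical and lectin pathways passed. Of them 2 had an unadjusted limma p under 0.05, against 27.6% of all genes. The smallest p-values among them were those of the collectin Colec10 (-0.74 ± 0.21) and of C1ra, a C1r protease (-0.34 ± 0.12), with limma adjusted p = 0.0559 and 0.112. A second C1ra probe, measured above background on each array, gave 0.11 ± 0.18. Factor D, encoded by Cfd, differed by -0.26 ± 0.29 (limma adjusted p = 0.605).

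Regulators, which restrain complement on host surfaces and in fluid, included 4 lower genes and no higher one among 16 tested. Over all genes tested, 2.89% were lower and 4.6% higher. Serping1, the C1 inhibitor, read 3.83 to 3.97 in p53-null and 4.20 to 4.49 in wild-type lung (-0.37 ± 0.078, limma adjusted p = 0.0283). Cfi, the protease factor I, read -3.29 to -3.12 in p53-null and -2.93 to -2.70 in wild-type lung (-0.40 ± 0.075, limma adjusted p = 0.0207). For both genes, and for Cd55 given next, the groups did not overlap. Over all genes tested, 3.79% had every p53-null array below every wild-type array. Cfhr2 differed by -0.66 ± 0.15 and Cd55, the decay-accelerating factor, by -0.50 ± 0.12 (limma adjusted p = 0.0347 and 0.0388). The other Cd55 probes differed by -0.04 and 0.03, so the fall of Cd55 was seen on 1 of 3 probes.

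In the terminal pathway, which builds the membrane pore, 4 of 7 genes passed the filter. C6 was lower (-0.56 ± 0.12, limma adjusted p = 0.0284) and C8g was higher by 0.38 ± 0.089 (limma adjusted p = 0.0372). C8a, C8b and C9 were not well above background on any array. Among 12 receptors and binding proteins C5ar2, a second receptor for C5a, was higher by 0.52 ± 0.11 (limma adjusted p = 0.0284). Calr, calreticulin, which binds C1q at the cell surface besides its work in protein folding, was lower by -0.64 ± 0.12 (limma adjusted p = 0.0201), and its second probe differed by -0.50 ± 0.18. The groups did not overlap for Colec10, C6, C8g, C5ar2 and Calr either, which held for 9.1% of all genes in either direction. In the 10 fits that each left out 1 array, Cfi and Calr passed in 6, C5ar2 in 4, C6 in 3, Serping1 and C8g in 2, and Cd55 and Cfhr2 in 1, while no difference changed sign. Without wild-type array 5 all 8 passed, in a fit where 31.4% of all genes did.

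**Figure D4:**
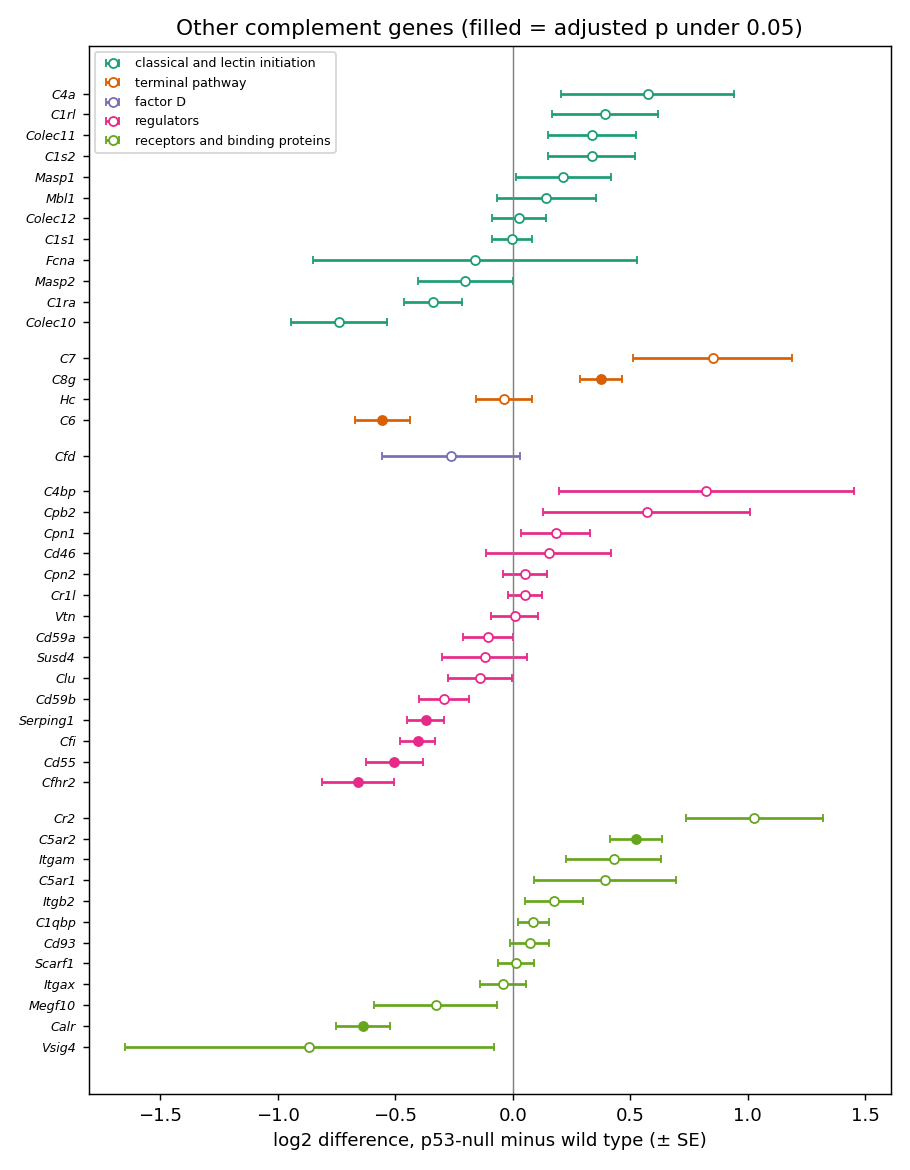
Difference between p53-null and wild-type lung in log2 units (± SE) for 44 of the 45 other complement genes that passed the filter, grouped by role, with filled symbols for limma adjusted p under 0.05. The 4 filled regulators lie left of 0, and the other filled genes lie on both sides.

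Markers of blood cells moved with genotype beside these genes. The counts below stand against 4.6% higher and 2.89% lower over all genes tested. Neutrophil markers were higher in 7 of 12 (median 1.36; mean level -1.42 to 0.06 in p53-null and -2.40 to -1.93 in wild-type lung), among them the calprotectin chain S100a9 (2.42 ± 0.28), the collagenase Mmp8 (1.11 ± 0.16) and the gelatinase Mmp9 (1.35 ± 0.16). B cell markers were higher in 8 of 11 (median 1.23; mean level -0.54 to 0.31 in p53-null and -2.04 to -1.04 in wild-type lung, over the 10 measured on all arrays), with Cd22 (1.82 ± 0.25) and Pax5 (1.72 ± 0.29). Among T and NK cell markers 7 of 14 were higher (mean level -1.49 to -0.99 in p53-null and -2.26 to -1.52 in wild-type lung), and fibroblast markers were lower in 4 of 10 (2.94 to 3.13 in p53-null and 3.32 to 3.53 in wild-type lung, over the 9 measured on all arrays). Hepatocyte markers, 5 tested of 7 on the array, did not pass the test, with 1 at an unadjusted limma p under 0.05, and their mean level was -5.15 to -4.89 in p53-null and -5.13 to -4.57 in wild-type lung.

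Interferon-stimulated genes were higher in 6 of 15 (mean level 0.23 to 0.46 in p53-null and -0.11 to 0.06 in wild-type lung), with Oas1a (0.95 ± 0.10), Irf7 (1.04 ± 0.15) and Usp18 (0.58 ± 0.089). Across all genes tested, 4.6% were higher. Of 12 acute-phase and NF-kappaB target genes, 1 was higher, the cytokine gene Il1b (1.36 ± 0.22), and the list's mean level was -0.08 to 0.24 in p53-null and -0.31 to -0.01 in wild-type lung. The limma adjusted p of the genes named here from these lists lay between 0.00297 and 0.0169. Cfb is known to respond to interferon and to inflammatory cytokines, and the part of these genes or cells in the complement values was not tested.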

How the data were processed

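Whole-lung RNA was hybridised as Cy3-labelled cRNA to Agilent arrays, 1 mouse per array, per the labels' protocols. The submitters' processing notes name Agilent Feature Extraction 9.5 for the scanner intensity values that the authors deposited; per the file headers these were background-subtracted and spatially detrended. The deposited value table held the same intensity values (largest difference 0 over 45018 rows).

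From these, log2 signals were taken relative to the 75th percentile of an array's 43379 non-control spots. Spots flagged as outliers were dropped, repeated spots of 1 probe were averaged, and the probe of highest mean stood for its gene. The test covered the 21108 of 27670 genes that were well above background on 5 or more of the 10 arrays. It used limma 3.58.1 under R 4.3.3 (lmFit, then eBayes), without covariates, with Benjamini-Hochberg adjustment at 0.05. The number of arrays limits the precision. Of 41174 probes, 22951 were named by accession, 6659 by symbol and 3109 by synonym through RefSeq (GRCm38.p6, for names only), and 8455 kept the file's name. The code was tested on simulated data.

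Members and lists were chosen with earlier results of these data known. Named genes were the 9 members with every probe, every other complement gene that passed (or, for a list with none, the 2 with the smallest p), up to 3 genes from each of the macrophage, neutrophil, B cell, interferon-stimulated and acute-phase lists, the 5 genes most like the C1q mean and like C3, and Trp53. Some genes of these lists are not reported here. As alternatives the background correction, the scaling, the filter, the choice of probe, slide and scan day as blocks, the replicate number as a block, the variance model, weights for arrays, probe GC content and the omission of each array were tried.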

Additional observations from a re-analysis of the deposited data

Results flagged for a closer look

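The search covered 84 groups of 5 arrays: the members with their second probes, the genes named by rule from the complement and marker lists, and mean levels of some marker lists. Of these, 8 had a highest or lowest array set far apart from the nearest other one. Chance alone gives about 1 in 20, but these groups share the same arrays and are not independent. Wild-type array 5 was the array in 5 of them. It read 1.95 for C1qa with the next wild-type array at 1.21, 0.95 for C1qb with the next at 0.03, and 3.66 for C4b with the next at 2.97. It also read 2.32 for Csf1r with the next at 1.72, and was the lowest wild-type array for C1ra, at 2.65 with the next at 3.17. P53-null array 1 was highest for C1qa, at 2.14 with the next at 1.68, and for Pax5, at -1.67 with the next at -2.44. Wild-type array 1 was lowest for Cfp, at 1.42 with the next at 1.86.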

How the results depend on the processing

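The median difference of the 9 members stayed above 0, at 0.32 to 0.57 with 1 array left out and 0.24 to 0.51 under the other settings. Counts moved. Leaving out 1 array gave 0 to 6 called members, 0 to 13 other complement genes and 192 to 6618 genes, against 1, 8 and 1582. No member was called with median scaling, no filter on dim probes, the GC trend removed, the slide as a fixed block, the slide number range as a block, within either range, scan day as a block, the replicate block or without the arrays high in skeletal muscle genes. There were 2 called members with normexp, quantile normalization, a filter of 10 arrays, or a trended and robust variance. All genes called in these fits numbered 1368, 1609, 2075 and 2254, in that order. There were 6 called members with array weights, and 4 with the GC trend removed and wild-type array 5 left out. Other complement genes called numbered 3 with median scaling, 2 without a filter, 2 with the GC trend removed, 4 with the range as a block, 1 with scan day, 14 with array weights, and 0 under the fixed slide block, within either range, under the replicate block and without the muscle-high arrays. Genes called numbered 583, 538, 742, 697, 322 and 6516 in the first 6 of these, 0 under the fixed slide block, 16 and 0 within the lower and higher range, 26 under the replicate block, 10 without the muscle-high arrays, 998 with the mean of all probes and 4652 with the GC trend removed and wild-type array 5 left out. With the GC trend removed 76.0% of calls were higher, 41.6% without wild-type array 5 as well, against 61.4%. The fixed slide block compares 1 array of each genotype, and each slide range holds few arrays. Replicate numbers did not pair the mice (residual correlations -0.22 to 0.0011); with them as a block the limma adjusted p of Cfb was 0.175.

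C2 reversed to 0.11 with the mean of both probes. Cfp reversed to -0.43 under the fixed slide block, -0.44 within the higher range, -0.0877 with the GC trend removed, -0.15 with that and without wild-type array 5, -0.055 without p53-null array 1 and -0.0034 without wild-type array 1, in a range of -0.055 to 0.2157 over the 10 fits that left out 1 array. Cfb passed under 9 of 18 settings, slide blocks and ranges included. It did not pass, among others, at 0.42 with median scaling (limma adjusted p = 0.0888), 0.49 without a filter (0.0541) and 0.43 with the GC trend removed (0.0662). The 18 leave out the value table, which repeats the main values, and the scan day block, which is the fit without wild-type array 3. The cause of these changes was not tested.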

Other observations

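One complement gene outside the naming rule was chosen after its values were seen. Cr2, the complement receptor of B cells and follicular dendritic cells, read -2.70 to -1.74 in p53-null and -4.12 to -2.73 in wild-type lung, a difference of 1.03 ± 0.29 (limma adjusted p = 0.0591). On its dimmer probe the groups overlapped, and wild-type array 5 was highest of all, at -3.90. That probe differed by 0.61 ± 0.39 (limma adjusted p = 0.343 over all probes).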
